A study of Mus musculus with 6 samples.

Results

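The named box C/D small nucleolar RNAs (snoRNAs) were examined in extracellular vesicles (EVs) released by the mouse B lymphoma line WEHI-231. The members were the genes of biotype snoRNA in the GENCODE M21 annotation of GRCm38 whose symbol starts with Snord, without Snord89, Snord35b and Snord83b. They numbered 95 of the 47729 genes in the count files, carried 94 symbols because Snord80 names a pair of genes, and 45 of them had at least 1 count. The EVs came from cultures of a single line stimulated for 1 h with isotype control antibody or with the anti-CD24 antibody M1/69, each at 10 µg/mL and pre-incubated with 5 µg/mL of secondary antibody, in 3 biological replicates per condition and in medium depleted of serum vesicles. EVs were captured with the Vn96 peptide, their RNA was sequenced on an IonTorrent PGM without fragmentation, and the libraries of both conditions with the same replicate number shared a run. All isotype libraries carried barcode 1 and all anti-CD24 libraries barcode 2, so barcode and condition cannot be told apart.

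Box C/D snoRNAs are short nucleolar RNAs that are mostly cut out of the introns of other genes. Each carries a box C near its 5′ end and a box D near its 3′ end, and the proteins fibrillarin, NOP56, NOP58 and SNU13 assemble on these boxes. A stretch of the snoRNA just before box D, or before an internal copy of it, pairs with a target RNA and guides the methylation of the 2′-hydroxyl of one target nucleotide, usually in rRNA and in some cases in U6 snRNA. A few members, such as Snord118 (U8) and Snord13 (U13), act in the processing or modification of rRNA and are transcribed from genes of their own.

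The transcript sequences of GENCODE M21 were read for all 95 members on the transcribed strand. The box C core TGATGA lay within the first 25 bases of 70 members, the box D sequence CTGA within the last 25 bases of 94, and both in 69 (72.6%). Among the 42 named box H/ACA snoRNAs, the other large snoRNA class, 0 had both and 6 had the CTGA. On the reverse strand, 0 members of either class had both. Of the 4 members with the most counts, Snord32a, Snord100 and Snord17 are printed first, 5′ to 3′, with each TGATGA and the last CTGA in capitals. Snord32a lies on chr7:45127382-45127464, Snord100 on chr10:23785750-23785823 and Snord17 on chr2:144265979-144266216, all on the minus strand of GRCm38.
Snord32a: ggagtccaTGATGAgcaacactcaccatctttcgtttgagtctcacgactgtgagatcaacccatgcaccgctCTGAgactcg
Snord100: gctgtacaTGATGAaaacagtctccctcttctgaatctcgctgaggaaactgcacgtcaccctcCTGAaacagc
Snord17: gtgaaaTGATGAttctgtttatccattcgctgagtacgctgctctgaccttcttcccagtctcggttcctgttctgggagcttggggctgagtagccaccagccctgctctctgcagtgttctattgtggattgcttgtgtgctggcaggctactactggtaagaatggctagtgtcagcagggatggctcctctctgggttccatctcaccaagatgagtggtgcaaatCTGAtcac

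Snord17, with 238 bases, was the longest member, and the counted members ran from 64 to 238 bases with a median of 78. Snord49a on chr11:62603450-62603521 and Snord49b on chr11:62603079-62603150, both on the plus strand, are shown because they share a host gene and 70.7% of their aligned bases. In Snord49b overlapping copies of TGATGA stand at the 5′ end.
Snord49a: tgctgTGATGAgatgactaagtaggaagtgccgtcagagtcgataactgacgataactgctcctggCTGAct
Snord49b: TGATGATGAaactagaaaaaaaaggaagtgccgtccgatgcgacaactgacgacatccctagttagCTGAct

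Snord118 on chr11:69073427-69073561, plus strand, is shown as the most counted rRNA processing member. Its TGATGA lies inside the molecule, away from the 5′ end.
Snord118: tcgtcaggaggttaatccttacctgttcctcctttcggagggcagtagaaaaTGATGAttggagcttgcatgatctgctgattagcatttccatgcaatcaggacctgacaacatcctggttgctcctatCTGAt

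Guide stretches were searched as runs of at least 10 bases, perfectly complementary to a target and ending 0 or 1 base before any CTGA. Against the 107 bases of Rnu6, the U6 snRNA, 3 of the 95 members had such a run, namely Snord7, Snord8 and Snord67, and 0 of the 42 box H/ACA snoRNAs did. All 3 belong to the U6 methylation guides. The run is in capitals in Snord7 (chr11:83294304-83294400, plus strand, 11 bases) and Snord8 (chr14:52209785-52209894, minus strand, 11 bases).
Snord7: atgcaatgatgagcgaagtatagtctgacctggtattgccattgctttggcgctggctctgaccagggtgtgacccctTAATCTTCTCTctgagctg
Snord8: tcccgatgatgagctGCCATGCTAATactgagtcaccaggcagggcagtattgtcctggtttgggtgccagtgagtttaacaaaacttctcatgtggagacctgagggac

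The same search was run against CT010467.1, a gene of 1849 bases with the biotype rRNA. Against the strand opposite to its annotation, 18 members (18.9%) had a run, among them all 4 Snord14 genes (U14, which is known to pair with 18S rRNA). Against its own strand 0 members matched, and 0 box H/ACA snoRNAs matched either strand. Of the 18 members, 11 had counts. A counted and an uncounted example are printed with the run in capitals, Snord59a (chr10:128084143-128084216, plus strand, 13 bases) and Snord45c (chr3:153912125-153912204, minus strand, 16 bases).
Snord59a: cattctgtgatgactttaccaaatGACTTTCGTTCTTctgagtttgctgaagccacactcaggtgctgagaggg
Snord45c: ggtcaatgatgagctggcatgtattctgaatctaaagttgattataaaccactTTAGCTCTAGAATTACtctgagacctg

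The samples held between 166129 and 794185 counts on genes, of which 15626 to 112042 lay on genes other than rRNA and ribozyme genes (non-rRNA counts). Taking 3 counts as the limit, a count of 0 allowed a level of up to 3.78 to 18.1 CPM, depending on the sample, where CPM is a gene's counts scaled to 1000000 counts on genes. These limits, and the intervals given with shares, cover counting error only, since the reads carried no molecular identifiers. Isotype replicate 1 stood apart in its unaligned reads, at 51.1% of its reads against 11.4% to 18.5% in the others. Of 9 B cell markers 7 had counts, Ighm in 5 of the 6 samples, while Ptprc was among those with none. All 5 T cell markers were at 0. Of 6 erythroid markers 4 had counts, all in anti-CD24 replicate 1, with 99 counts in sum (162 CPM), mainly Hbb-bs with 38 and Hbb-bt with 36. Of 5 myeloid markers 3 had counts, 4 in anti-CD24 replicate 1, 4 in anti-CD24 replicate 2 and 0 in the other samples.

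Of the 95 members, 45 had a count in at least 1 sample and 31 in all 6 samples. The number with a count was 39, 33 and 39 in the isotype samples and 44, 45 and 40 in the anti-CD24 samples, in the order of the replicates. The lowest number was in isotype replicate 2, the sample with the fewest counts. The anti-CD24 samples were deeper on average, with a mean of 713634 counts on genes against 417421 in the isotype samples. No member had counts in isotype samples only, and 4 had them in anti-CD24 samples only. Of these, Snord70, hosted by Nop58, had 24, 12 and 0 counts in the anti-CD24 samples and Snord98, hosted by Ccar1, had 17, 7 and 0. The others were Snord69, with 2, 1 and 0 counts, and Snord42b, with 0, 2 and 0. The isotype samples held 0 counts of each, at limits of 9.31, 18.1 and 3.93 CPM, so an absence from these EVs was not shown. The share of all genes with counts in a single condition was not computed, so these members were not set apart from other genes.

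The 50 members without any count fell into a pair of groups. The first was the 17 Snord116 genes inside Snhg14, the imprinted cluster of the Prader-Willi region that is known to be expressed mainly in neurons. These genes have only 4 distinct sequences of 94 bases, 14 of them identical, and 0 counts in all 6 samples. The second group was 33 members that share bases with an exon of another gene on the same strand. Among the 55 members without such an overlap 38 had counts, and all 17 others were Snord116 genes. Among the 40 members with an overlap 7 had counts (17.5%). The overlap covered the whole member in 36 genes, of which 4 had counts, namely Snord100, Snord16a, Snord19 and Snord69. The named box H/ACA snoRNAs showed the same arrangement, with counts for 13 of 14 genes without an overlap and for 5 of 28 genes with one (17.9%).

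**Figure D1:**
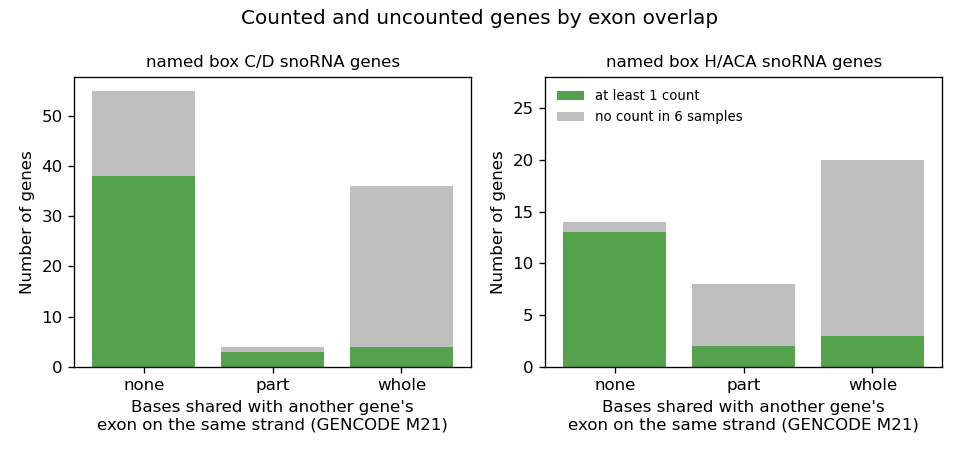
Number of genes with at least 1 count (green) and with no count in the 6 samples (grey), by how many of their bases lie in an exon of another gene on the same strand in GENCODE M21, for the named box C/D (left) and box H/ACA (right) snoRNAs. With no overlap 38 of 55 box C/D genes were counted, against 4 of 36 where the overlap covered the whole gene.

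The authors' counting in union mode sets a read aside as ambiguous when it touches exons of more than one gene. The ambiguous reads numbered 2743 to 21834 per sample, more than the 398 to 9059 counts on the box C/D snoRNAs. They were highest in anti-CD24 replicates 1 and 2, at 3.58% and 2.74% of the counts on genes, against 1.17% to 1.69% in the other samples. How many of them came from snoRNAs was not tested. The annotation release that the authors used was not at hand, so the overlaps are those of GENCODE M21. Wholly overlapped members also included Snord100, with 1810 counts, so an overlap in this annotation did not by itself mean a count of 0. The overlapped members with no count included the 4 Gas5 genes (Snord47, Snord78 and both Snord80 genes), all 4 Snord14 genes, Snord22 in Snhg1, Snord95 and Snord96a in Rack1, and Snord33 in Rpl13a. Whether a value of 0 for these genes reflects the counting or the EVs was not tested. Snord33 (chr7:45126864-45126947, minus strand) is printed beside the uncounted Snord116l1 (chr7:59894620-59894713, minus strand), since both carry intact boxes, in capitals.
Snord33: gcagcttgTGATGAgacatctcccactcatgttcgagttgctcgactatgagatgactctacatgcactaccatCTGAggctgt
Snord116l1: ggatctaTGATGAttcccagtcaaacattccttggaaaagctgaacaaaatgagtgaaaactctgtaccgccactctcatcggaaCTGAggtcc

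The counts on the members were accompanied by few counts on the exons of their hosts. The 33 host genes of counted members held 223 counts in the 6 samples together, against 17386 counts on the members inside them, and for all 33 hosts the members had more counts than the host. Snx5 had 5 counts and its Snord17 2063, and Rps12 had 1 and its Snord100 1810. Eef2, with 96 counts against 179 of Snord37, had the most counts among these hosts. The 18 hosts of members without a count held 306 counts, 229 of them on 1110038B12Rik, the host of Snord52, whose exon covers that snoRNA.

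The levels of the members were compared per length, as the mean CPM over the 6 samples per kilobase of the annotated gene. Members in ribosomal protein genes held 60.5% of all 17926 member counts, of which 9059 came from anti-CD24 replicate 1, and 44.6% to 67.9% by sample. In isotype replicate 3 the members in other protein-coding genes held more, at 47.0% against 44.6%. Snord55 was first with 12585 CPM per kilobase, followed by Snord32a in Rpl13a with 11852 and Snord100 in Rps12 with 6915. Next came Snord49b in 2410006H16Rik, a non-coding host, with 3091, Snord17 in Snx5, a sorting nexin gene, with 2544, and Snord42a in Rpl23a with 2142. The ranges over the samples overlapped between neighbours in this order, which were not tested against each other. The order also depends on the division by length, and the RNA was not fragmented. Whether reads rose with length was not tested. In mean CPM without that division, Snord17, with 238 bases, stood at 606, above Snord100 at 512 and Snord49b at 223. The 4 members with the most counts together held 60.3% of the member counts.

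**Figure D2:**
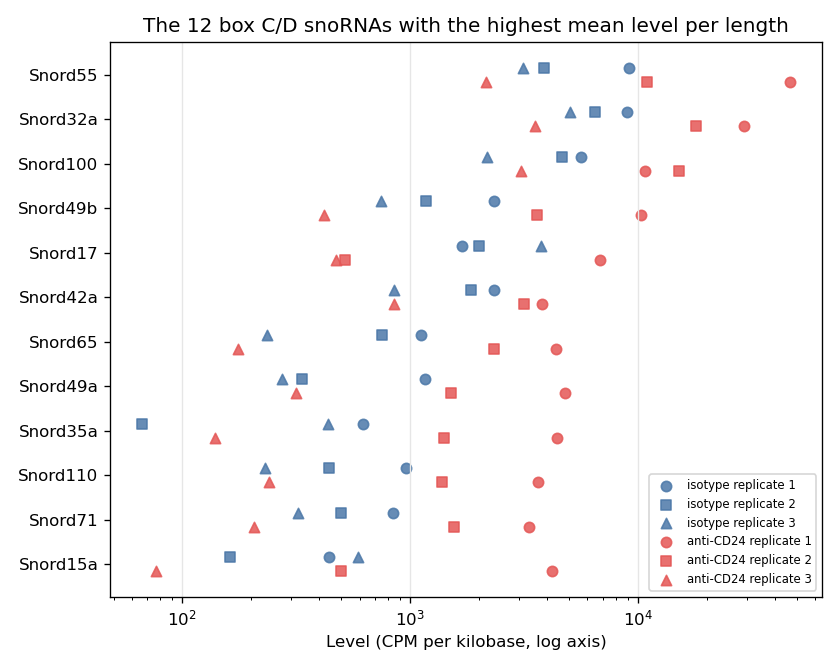
Level per length (CPM per kilobase, log axis) of the 12 box C/D snoRNAs with the highest mean, one point per sample, with isotype samples in blue and anti-CD24 samples in red and the replicate given by the marker. In most rows anti-CD24 replicate 1 is the rightmost point and anti-CD24 replicate 3 lies at or near the left end, so the conditions overlap.

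Members cut from the same host transcript differed in level. In Rpl13a, whose snoRNAs are known to accumulate outside the nucleus under lipotoxic stress, Snord32a was 42.5-fold above Snord34 per length and Snord35a lay between them with 1179 CPM per kilobase. The fourth snoRNA of this host, Snord33, had no count and lies wholly in an Rpl13a exon. In Rpl23a, Snord42a was followed by Snord4a and by Snord42b, which had 2 counts in all and an exon overlap of 22 bases. In 2410006H16Rik the spread was smaller, with Snord49b 2.22-fold above Snord49a and Snord65 between them at 1499 CPM per kilobase. In Wdr43, Snord53 and Snord92 differed by 1.17-fold. The hosts Nop56, Nop58 and Ncl, whose proteins themselves belong to or work with nucleolar ribonucleoproteins, held Snord110, Snord11 with Snord70, and Snord82.

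Among the rRNA processing members, Snord118 (U8) had 13, 10 and 21 counts in the isotype samples and 42, 97 and 4 in the anti-CD24 samples. Snord13 (U13) had 11, 2 and 24 counts in the isotype samples and 74, 40 and 11 in the anti-CD24 samples. The conditions overlapped for both genes, in CPM as well. The U6 guides Snord7 and Snord8 had 148 and 108 counts in all. Snord7 had 7, 4 and 4 counts in the isotype samples and 85, 33 and 15 in the anti-CD24 samples, which in CPM was 21.7, 24.1 and 5.24 against 139, 44.8 and 18.9. For Snord8, 86 of the 108 counts were in anti-CD24 replicate 1. The third U6 guide, Snord67, shares 93 of its 111 bases with an exon of Ckap5 and had no count. Of the 19 genes of the imprinted clusters, which also include Snord64 and Snord107, 0 had counts.

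The question of the design was whether CD24 stimulation changed the RNA carried by the EVs. The members together had 1163, 398 and 1809 counts in the isotype samples and 9059, 4561 and 936 in the anti-CD24 samples. In the isotype samples this made 4.18% (95% Wilson interval 3.96% to 4.43%), 2.55% (2.31% to 2.81%) and 2.62% (2.51% to 2.75%) of the non-rRNA counts. In the anti-CD24 samples it was 14.02% (13.8% to 14.3%), 4.07% (3.96% to 4.19%) and 1.15% (1.08% to 1.23%). Anti-CD24 replicate 1 had the highest share and anti-CD24 replicate 3 the lowest of all samples, so the isotype samples lay within the range of the anti-CD24 samples. The isotype mean was 3.12% ± 0.92 (SD, n = 3) and the anti-CD24 mean 6.41% ± 6.75 (SD, n = 3). In bulk EV RNA, fewer vesicles of a kind and less RNA per vesicle cannot be told apart. The difference of 3.29 percentage points was smaller than the spread between the anti-CD24 replicates, and without anti-CD24 replicate 1 it turned to -0.51.

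**Figure D3:**
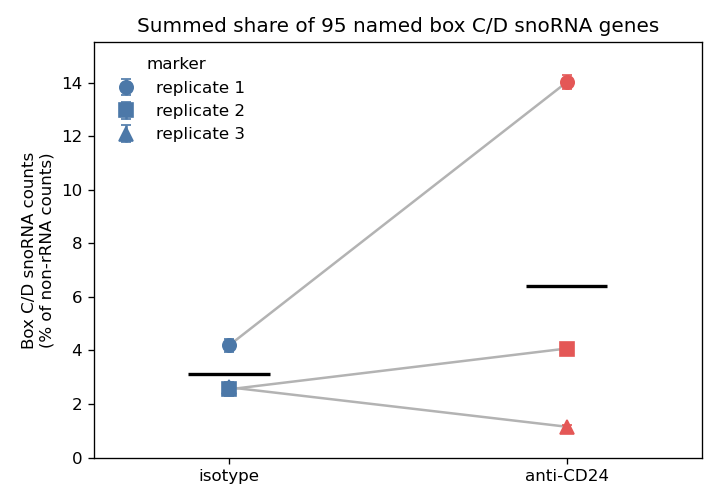
Counts on the 95 named box C/D snoRNA genes as a percentage of non-rRNA counts, by condition, with 95% Wilson intervals, a line joining the libraries of one run and a black bar for the mean of 3 samples. The share was higher after anti-CD24 in the runs of replicates 1 and 2 (14.02% and 4.07%) and lower in that of replicate 3 (1.15%).

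Within runs, the share changed by 9.83, 1.52 and -1.47 percentage points in replicates 1, 2 and 3. In CPM, the member sum in the anti-CD24 library was 4.11 times that of the isotype library in replicate 1, 2.59 times in replicate 2 and 0.498 times in replicate 3. Of the 43 members with 10 or more counts in all, 42 were higher in the anti-CD24 library in run 1, 40 in run 2 and 12 in run 3. Over all 784 genes with as many counts, 54.8%, 65.1% and 30.2% were higher in the 3 runs. The share of members in run 3 was 27.9%, near that of all genes. The members that were lower were Snord123 in run 1 and Snord17, Snord23 and Snord93 in run 2. The 12 that were higher in run 3 were Snord100, Snord42a, Snord49a, Snord110, Snord87, Snord16a, Snord53, Snord92, Snord7, Snord58b, Snord111 and Snord72. Of the 31 members with a count in every sample, anti-CD24 replicate 1 was highest for 28 and anti-CD24 replicate 2 for the other 3. Anti-CD24 replicate 3 was lowest for 19 of them. The same ranking was not computed for all genes, so it does not set the members apart from other genes.

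Other snoRNAs were also highest in anti-CD24 replicate 1. The named box H/ACA snoRNAs made up 0.201%, 0.115% and 0.281% of non-rRNA counts under isotype antibody and 0.863%, 0.146% and 0.0626% in the anti-CD24 samples, where replicate 2 lay within the isotype range and replicate 3 was the lowest. Snord89, Snord35b and Snord83b together held 0.317%, 0.0384% and 0.145% in the isotype samples and 1.87%, 0.341% and 0.115% in the anti-CD24 samples, where replicate 2 lay just above isotype replicate 1 and replicate 3 within the isotype range. The members' share of all snoRNA counts ran from 66.6% to 73.7% over the 6 samples, with 71.5% ± 1.9 in the isotype and 69.8% ± 3.6 in the anti-CD24 samples (SD, n = 3 each). The erythroid markers were also counted only in anti-CD24 replicate 1, and their part in these results was not tested.

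The make-up of the member counts differed between samples, mainly through Snord17. Snord17 had 130, 79 and 681 counts in the isotype samples and 993, 91 and 89 in the anti-CD24 samples. It held 37.6% of the member counts in isotype replicate 3 and 2.00% in anti-CD24 replicate 2, against 9.51% to 19.8% in the other samples. In CPM, it was 403, 476 and 892 in the isotype samples and 1627, 123.6 and 112 in the anti-CD24 samples, so it followed the other members in anti-CD24 replicates 1 and 3 but not in replicate 2. Snord100 went the other way, from 6.80% of the member counts in isotype replicate 3 and 5.38% in anti-CD24 replicate 1 to 18.2% and 19.2% in anti-CD24 replicates 2 and 3. Snord32a varied least among these 4 genes, between 16.3% and 24.9%. Without Snord17, the isotype samples had 3.72%, 2.04% and 1.64% of non-rRNA counts on the members, and the anti-CD24 samples 12.5%, 3.99% and 1.04%. Anti-CD24 replicate 2 then lay above every isotype sample, where with Snord17 it lay just below isotype replicate 1. Snord17 was left out after its values were seen.

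**Figure D4:**
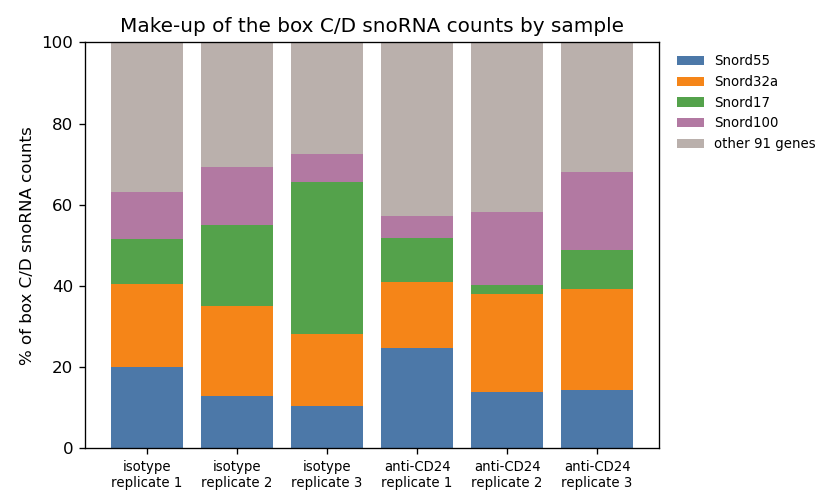
Percentage of the box C/D snoRNA counts held by Snord55, Snord32a, Snord17, Snord100 and all other members in each sample, stacked to 100. Snord17 (green) takes 37.6% in isotype replicate 3 and 2.00% in anti-CD24 replicate 2.

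Differential abundance was tested with edgeR's quasi-likelihood test over the 1501 genes with at least 1.0 CPM in 3 or more samples, of which 41 were members. At an adjusted p under 0.05, 0 of the 41 members were called, where 0.0666% of all genes tested were. DESeq2 also called 0. At an unadjusted p under 0.05, edgeR had 16 of the 41 members, all higher after anti-CD24, against 4.2% of all genes tested in that direction, and DESeq2 had 2, against 0.533% of all genes. With the replicate block edgeR had 3, against 0.866%. Without isotype replicate 2 the edgeR count of 16 fell to 0, against 0.306% of all genes. It fell to 3 without isotype replicate 3, against 0.784% of all genes. It was 14 without isotype replicate 1, against 3.82%, and 11 without anti-CD24 replicate 2, against 2.33%. With RLE size factors it was 4, against 0.866% of all genes. It rose to 26 of 45 members without the filter, against 1.14%, and to 29 of 41 with rRNA genes left out, against 8.32%. The fitted log2 fold change was above 0 for all 41, against 44.7% of all genes. It was above 0 for 38 of the 41 with RLE size factors, against 33.1% of all genes. DESeq2 also gave 38, against 31.8%, and the replicate block gave 39, against 45.2%. In the main fit the median log2 fold change was 1.77 for the members and -0.29 for all genes, a difference of 2.07. This difference was 2.13 with RLE size factors, 1.58 with the replicate block and 1.22 without anti-CD24 replicate 1. The standard errors of the fold changes, derived from the F statistic, lay between 0.74 and 1.68. No member had an adjusted p below 0.49 in edgeR's test. For 0 of the 41 members did the samples of the conditions separate in CPM in either direction, where 5.73% of all genes separated upward and 6.53% downward. After TMM scaling, the scaling of the test, 6 of the 41 separated upward (Snord59a, Snord7, Snord66, Snord100, Snord11 and Snord53) and 0 downward, against 7.79% and 8.06% of all genes. Snord100 then had 378, 256 and 186 CPM in the isotype samples and 733, 825 and 443 in the anti-CD24 samples. This scaling was added after the unscaled values were seen.

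The 5 members with the smallest p were Snord92, Snord59a, Snord35a, Snord55 and Snord8, all with an adjusted p of 0.49 from edgeR's quasi-likelihood test. Snord92, in Wdr43, was at 31.0, 0 and 9.17 CPM in the isotype and 203.2, 78.8 and 10.1 CPM in the anti-CD24 samples, and its log2 fold change was 2.70 (standard error 1.00). Snord59a, in the ATP synthase gene Atp5b, had 0, 0 and 4 counts against 36, 20 and 3, giving 3.25 on that scale (standard error 1.27). In both genes anti-CD24 replicate 3 fell among the isotype samples in CPM. Snord35a had 18, 1 and 30 counts in the isotype samples and 242, 93 and 10 in the anti-CD24 samples, giving 2.21 (standard error 0.88). Snord8 had 4, 0 and 6 counts against 86, 9 and 3, giving 2.69 (standard error 1.10), and its anti-CD24 replicates 2 and 3 lay within the isotype range in CPM. Without anti-CD24 replicate 1 the value of Snord8 was 0.48 and that of Snord35a 1.27, and without isotype replicate 3, the only isotype sample with counts of Snord59a, that of Snord59a was 6.88, a fitted value against samples at 0 that depends on the prior count. All 5 of these genes were highest in anti-CD24 replicate 1.

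Snord55 had 232, 51 and 188 counts in the isotype samples and 2233, 636 and 135 in the anti-CD24 samples. In CPM this was 720, 307 and 246 against 3659, 864 and 170, so anti-CD24 replicates 1 and 2 lay above every isotype sample and replicate 3 below. The log2 fold change was 1.89 (standard error 0.76, edgeR adjusted p = 0.49). Without anti-CD24 replicate 3, Snord55 was the only member called by edgeR (adjusted p = 0.048), where 0.233% of all genes were called. In that fit 29 of the 41 members were higher at an unadjusted p under 0.05, against 6.23% of all genes. Without anti-CD24 replicate 1, 5 of the 41 were, against 10% of all genes, and the log2 fold change of Snord55 was 0.77. In that fit 0 members were called, where 47 of the 1119 genes tested were. Of these 47 genes 46 were higher after anti-CD24, and 33 of the 46 were rRNA or ribozyme genes. Scaling bears on the third replicate, whose TMM factor of 0.512 raised its normalized level. After TMM scaling Snord55 had 654, 229 and 284 CPM in the isotype samples and 3362, 633 and 332 in the anti-CD24 samples, and the member sum 3280, 1790 and 2734 against 13639, 4539 and 2304.

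Among the other abundant members, Snord32a had 239, 89 and 320 counts in the isotype samples and 1473, 1104 and 233 in the anti-CD24 samples, for which the log2 fold change was 1.32 (standard error 0.74). Snord100, with 134, 57 and 123 counts against 487, 829 and 180, was at 1.29 (standard error 0.76) and was highest in anti-CD24 replicate 2. Both lay at an adjusted p of 0.55 in the edgeR test. Snord42a, with 49, 20 and 42 counts against 151, 151 and 44, was at 0.74 (standard error 0.82, edgeR adjusted p = 0.72). Snord17, Snord23 and Snord118 were at 0.04, 0.14 and 0.60, and all 3 were negative with RLE size factors and DESeq2. Snord49b, Snord65 and Snord49a, which share a host, had log2 fold changes of 1.74, 1.72 and 1.90, and Snord15a, inside the ribosomal protein gene Rps3, one of 1.82. Snord110, Snord71, Snord87, Snord104 and Snord7 lay between 1.61 and 2.21. Over the 41 members the range was 0.04 to 3.25.

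**Figure D5:**
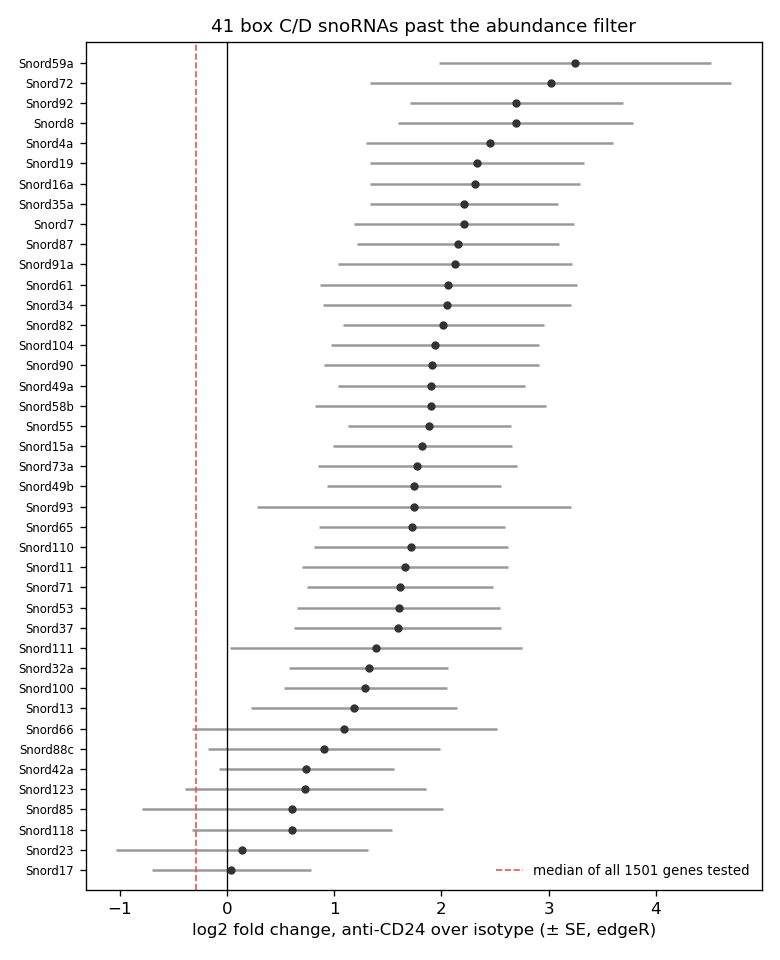
Log2 fold change (anti-CD24 over isotype, edgeR quasi-likelihood fit with TMM) with its standard error for the 41 members past the filter, with the median of all genes tested as a dashed line at -0.29. All points lie above 0, from 0.04 for Snord17 to 3.25 for Snord59a, and none had an adjusted p under 0.05.

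The mRNAs of the proteins that build snoRNA particles were near the limit of detection. The core box C/D proteins had 5 counts for Fbl (the methyltransferase fibrillarin), 3 for Nop56, 1 for Nop58 and 4 for Snu13 in the 6 samples together. Of the 8 assembly factors, among them the Ruvbl1 and Ruvbl2 ATPases, 0 had counts. Of 4 genes of export and cap maturation 2 had counts, and of 6 box H/ACA protein genes 3 did, led by Dkc1 (the pseudouridine synthase dyskerin) with 4. Of these 22 genes 1 passed the filter and 0 were called by edgeR in either direction, so no change of their level was detectable at this depth.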

How the data were processed

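RNA of EVs from 6 WEHI-231 cultures was sequenced, 3 per condition. Reads were trimmed by the authors (FASTX toolkit), mapped with tmap and counted on exons of Ensembl genes (GRCm38) with htseq-count (HTSeq 0.5.4p5 in the submitters' processing notes) in union, stranded mode, and the values deposited by the authors are raw counts per gene. Reads on more than one gene are ambiguous and lost. The 5 summary lines per file stayed out of library sizes. Members and gene lists were chosen with earlier results of these data known.

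Symbols, biotypes, hosts (the shortest gene spanning a member on its strand) and sequences came from GENCODE M21. Genes with 1.0 CPM in 3 or more samples were tested with edgeR 4.0.16 (R 4.3.3), quasi-likelihood, TMM, condition only, Benjamini-Hochberg at 0.05, after a test on simulated data. DESeq2 1.42.0, Python 3.11.15, pandas 2.3.3 and scipy 1.17.1 were also used. No p was computed for the member sum. Named members are the 12 highest per length, the 12 most counted with counts in every sample, the 5 smallest p, and the most counted of each role and host group. Other members were named for their role, host or absence after their values were seen. Alternatives were another normalization, DESeq2, other filters, rRNA genes left out, genes of identical counts kept once, the replicate number as a block, and each sample left out.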

Additional observations from a re-analysis of the deposited data

How the results depend on the processing

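The number of members called was 0 in every alternative except one, and ran from 0 to 1 when single samples were left out (1, Snord55, without anti-CD24 replicate 3). The number of all genes called, 1 in the test as reported, was 0 with DESeq2 and 0 with the replicate block, 2 without the filter and 2 with at least 10 counts, and ran from 0 to 47 when single samples were left out (0 without isotype replicate 1 or anti-CD24 replicate 2, 3 without anti-CD24 replicate 3, 47 without anti-CD24 replicate 1). With the replicate block, 0 members were called, 3 were higher at an unadjusted p under 0.05 (0.866% of all genes were) and the lowest adjusted p of a member from edgeR was 0.99. The block changed no other call. Libraries of one number shared a sequencing run by their run names. Their log2(CPM + 1) values, each taken relative to its condition mean, correlated at -0.030, -0.024 and -0.11 over 1501 genes. Libraries of different numbers correlated at -0.083 to 0.12, so these values could not decide whether the numbers pair the cultures. The authors' statistics section names a paired t-test. The main fit did not use the numbers as pairs, and the replicate block did. Of 266 refitted log2 fold changes of named members, 253 kept their direction and side of the threshold. Since no member had an adjusted p below 0.49 in edgeR's main fit, keeping the side said little. The size of the fold change did not enter this count. The log2 fold change of Snord17, 0.04 as reported, was -0.49 with DESeq2, -0.50 with RLE size factors, -0.21 with at least 10 counts, -0.20 with identical genes kept once, -0.91 with the replicate block, and -0.22, -0.46 and -1.83 without isotype replicate 1, isotype replicate 2 and anti-CD24 replicate 1, and reached 0.64 without anti-CD24 replicate 3. That of Snord15a ran from -0.24 without anti-CD24 replicate 1 to 2.55 without anti-CD24 replicate 3. That of Snord118 was -0.012 with DESeq2, -0.016 with RLE size factors and, leaving out single samples, from -0.20 without anti-CD24 replicate 2 to 1.15 without anti-CD24 replicate 3. The cause was not tested. The difference of the summed share, 3.29 percentage points as reported, was 0.46 as a share of all counts and -1.72 as a share of snoRNA counts, and ran from -0.51 to 5.93 when single samples were left out. The number of counted members was 44 at 3 or more counts and 43 at 10 or more. The number of members whose conditions did not overlap was 0 in CPM and 6 after TMM scaling, an alternative chosen after seeing the data.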
